A study of Mus musculus with 12 samples.

Results

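The genes described here mark fat cells in mouse tissue. They were 4 genes typical of brown adipocytes (Ucp1, Cidea, Dio2 and Elovl3) and 6 general adipocyte genes (Adipoq, Cfd, Fabp4, Plin1, Pparg and Lep), found by their gene names in the annotation of the array. All 10 were present among the 34797 genes named on the array, each with 1 probe. Of these, 8 were well above background throughout 1 group or more and were tested, 3 brown and 5 general, while Elovl3 and Lep did not pass this filter.

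Gene expression was measured in total RNA of the aorta from male mice on 12 one-colour arrays, in 4 groups of 3. Every mouse was homozygous for a floxed Socs3 allele (Socs3fl/fl), on a mixed background given as strain 129S5/SvEvBrd, C57BL6 and SJL. Mice labelled smSocs3-KO also carried a Cre transgene driven by the SM22 promoter, which is active in smooth muscle cells, and littermates without Cre served as WT. Each genotype was sampled before challenge and at day 3 of BAPN + AngII, an infusion by osmotic minipump of an inhibitor of collagen and elastin cross-linking together with angiotensin II, a model of aortic dissection. The comparisons ask how the aorta responded to the challenge in either genotype, and how the genotypes differed. The labels do not say whether an array holds 1 mouse or a pool, so p-values measure only the spread between these samples, which may be technical, and 3 arrays per group limit the precision of every value.

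Levels are given as log2 signal relative to the 75th percentile of the same array, so that 0 is the 75th percentile and a step of 1 is a doubling. Between 55.4% and 61.2% of the spots of an array were well above background. The arrays came from 2 slides. Slide 1 held all 6 WT arrays and replicate 1 of smSocs3-KO before challenge, and slide 2 held the 5 remaining arrays with the knockout label, so genotype and slide largely coincide. The 7 smooth muscle markers summed to between 1707 and 3547 times the 75th percentile on every array, as the tissue label says. Socs3, the targeted gene, was not lower under the knockout label. Its level was 0.30, 0.32 and 0.75 in WT and 0.24, 1.14 and 1.46 in arrays labelled smSocs3-KO before challenge, and whether its probe lies in the deleted part was not analysed here. A difference between genotypes below is therefore a difference between arrays labelled smSocs3-KO and WT.

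White adipocytes store triglyceride in a single large droplet and release hormones, whereas brown adipocytes hold many small droplets and dense mitochondria and burn fat to make heat. Around the mouse aorta, perivascular fat is brown-like along the thoracic part and more white-like along the abdominal part. Heat production rests on Ucp1, an uncoupling protein that lets protons leak back through the inner mitochondrial membrane. It is switched on when noradrenaline raises cAMP, and Dio2, which turns thyroxine into active thyroid hormone inside the cell, amplifies the signal. In a piece of aorta, fewer fat cells and less of an adipocyte RNA per fat cell cannot be told apart, and nothing in the labels says how much fat was left on the vessel.

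The probes of Ucp1 and Adipoq are printed because the results turn on the contrast between these genes. The positions are those of the array's annotation in build mm9, on the plus strand, chr8:85821788-85821847 for Ucp1 and chr16:23157576-23157635 for Adipoq, and their place in exons was not analysed here.
Ucp1 probe: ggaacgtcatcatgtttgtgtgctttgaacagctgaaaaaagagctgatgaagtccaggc
Adipoq probe: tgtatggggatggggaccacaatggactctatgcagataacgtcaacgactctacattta

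Promoters from RefSeq (build GRCm38.p6) matched 7 of the 10 genes. Those of Ucp1 and Dio2 are shown because the arrays separated these 2 brown genes from each other, as described further on. Each line gives the 250 bases before the start site, at chr8:83290098-83290347 on the plus strand for Ucp1 and at chr12:90739039-90739288 on the minus strand for Dio2. Capitals mark TGACGTCA (the cAMP response element), TATAAA (the TATA box) and AGGTCA (the hexamer bound by nuclear receptors), searched on both strands.
Ucp1 promoter: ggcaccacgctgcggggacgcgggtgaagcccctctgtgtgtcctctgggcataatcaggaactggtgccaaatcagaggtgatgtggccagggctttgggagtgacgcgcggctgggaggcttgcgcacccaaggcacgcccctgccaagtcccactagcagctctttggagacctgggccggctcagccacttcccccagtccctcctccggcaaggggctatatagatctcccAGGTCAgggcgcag
Dio2 promoter: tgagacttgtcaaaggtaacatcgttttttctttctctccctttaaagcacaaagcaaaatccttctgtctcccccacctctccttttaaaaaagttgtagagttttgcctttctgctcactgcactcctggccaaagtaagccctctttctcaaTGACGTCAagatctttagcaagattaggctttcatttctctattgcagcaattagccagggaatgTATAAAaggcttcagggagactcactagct

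The promoter of Dio2 held 1 TGACGTCA, a palindrome whose first base lay 95 bases before the start site, and 1 TATAAA at 30 bases. In the Ucp1 window neither was found, and its 1 AGGTCA began 14 bases before the start site. Among all 32851 promoters of the same 300-base window, 1.79% held TGACGTCA, 13.6% TATAAA and 16.3% AGGTCA. The same hexamer repeated with 1 base between the copies, the element read by PPARγ with its partner RXR, occurred in 0.0396% of promoters and in none of those matched here. Pparg had AGGTCA in 2 of its 3 promoter windows, and those of Adipoq, Cfd, Plin1 and Lep held none of the letters searched. These are descriptions of letters in a short window, not of binding sites.

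Ucp1 was the most variable of the members, with wide differences within groups. Before challenge its level was 2.44, -0.13 and -1.67 in WT and 2.38, -1.84 and -3.70 in mice labelled smSocs3-KO. The values at day 3 were -2.93, 4.56 and 2.04 in WT and -0.82, 0.44 and -0.87 under the knockout label. High and low arrays thus occurred side by side in 3 of the 4 groups, and all 4 groups overlapped. Levels also differed by slide, with a median of 2.04 over the 7 arrays of slide 1 and -0.87 over the 5 of slide 2, and the high array before challenge under the knockout label (2.38) was the one on slide 1. From the lowest array (smSocs3-KO before, replicate 4, linear signal 28.3) to the highest (WT day 3, replicate 3, linear signal 5960), Ucp1 spanned 308-fold, and no array fell below the background criterion. Within WT at day 3 alone the span was 180-fold. The SD around the group means was 2.70 on the log2 scale, against a median of 0.32 over all 22769 genes tested, and only 1 gene, Adcy1, had a larger one (3.03).

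Cidea, a lipid droplet protein abundant in brown fat, rose and fell with Ucp1 over a narrower range. It measured 3.06, 2.34 and 2.28 in WT before and 0.65, 3.68 and 2.77 in WT at day 3. With the knockout label it measured 3.31, 2.002 and 1.87 before and 2.62, 4.23 and 3.17 at day 3. The array that was lowest for Cidea, replicate 1 of WT at day 3, was also the lowest of its group for Ucp1, and the whole range was 11.96-fold.

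Dio2 behaved unlike the other brown genes. Its level was 2.76, 3.63 and 3.01 in WT before and 4.49, 5.09 and 3.44 in WT at day 3. Arrays with the knockout label gave 3.15, 3.25 and 3.51 before and 5.004, 4.09 and 5.18 at day 3. Its lowest array, replicate 1 of WT before, had the second-highest Ucp1 of all 12, and the array with the least Ucp1 at day 3, replicate 1 of WT, had more Dio2 (4.49) than any array before challenge. Elovl3, an enzyme that lengthens fatty acids and a cold-induced brown gene, was not well above background on any of the 12 arrays, with linear signals of 2.70 to 13.02.

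**Figure D1:**
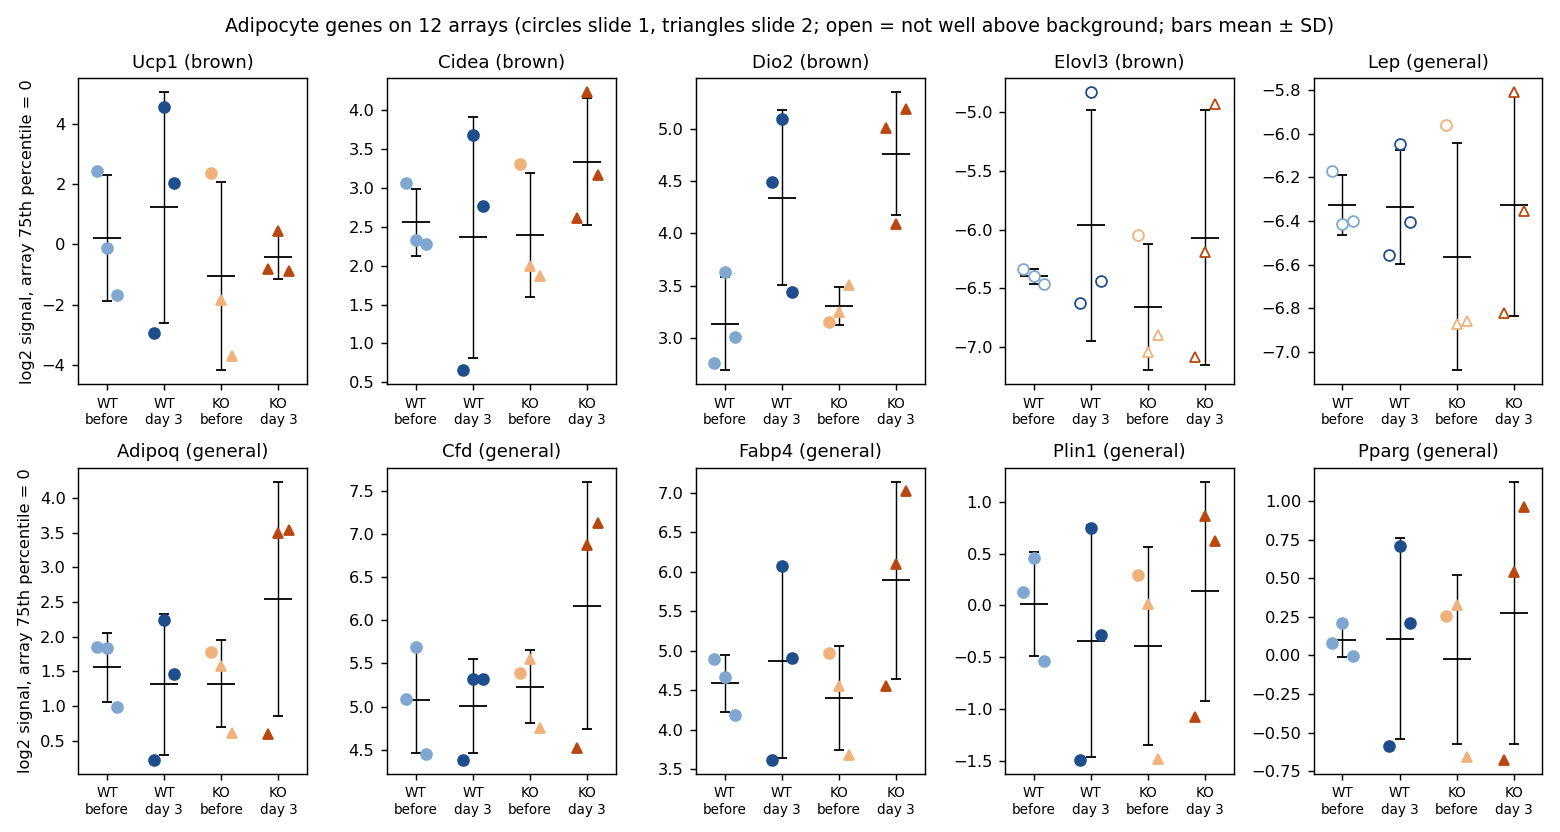
Log2 signal relative to the array's 75th percentile for the 10 adipocyte genes, by group (KO, arrays labelled smSocs3-KO). Each point is 1 array, circles on slide 1 and triangles on slide 2, open where the probe was not well above background, with the group mean ± SD. Vertical scales differ between panels: Ucp1 spans 8.27 log2 units and Pparg 1.64.

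Among the general genes, Adipoq, the adipocyte hormone adiponectin, measured 1.85, 1.84 and 0.99 in WT before and 0.22, 2.25 and 1.47 in WT at day 3. In mice labelled smSocs3-KO it measured 1.78, 1.58 and 0.61 before and 0.59, 3.5004 and 3.55 at day 3. Replicates 3 and 5 of the last group were above every other array, and replicate 2 of the same group was the second-lowest of all 12. Cfd (adipsin, a complement protease secreted by fat cells) showed the same order in that group, with 4.52 in replicate 2 against 6.87 and 7.12 in replicates 3 and 5. For Fabp4, the fatty acid carrier of adipocytes, the corresponding levels were 4.55, 6.09 and 7.03. The general genes split this group in the same way throughout, including Plin1, the coat protein of the lipid droplet (-1.08, 0.87 and 0.62), and Pparg, the transcription factor that drives adipocyte differentiation (-0.68, 0.54 and 0.96). Which Pparg isoforms the probe matches was not analysed, and they cannot be told apart here.

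Across all 12 arrays, Fabp4 spanned 10.6-fold, Adipoq 10.01-fold, Cfd 6.67-fold, Plin1 5.12-fold and Pparg 3.11-fold. Replicate 1 of WT at day 3 was the lowest of all for Adipoq, Cfd, Fabp4 and Plin1. The SD around the group means was 0.60 for Pparg and between 0.85 and 1.07 for the other 4. For 84.6% of the genes tested it was smaller than for Pparg, and for 98.2% smaller than for Adipoq. Lep, the hormone leptin, which is made mainly by white fat, was not well above background on any array. Its linear signal, a mean over 10 spots, lay between 2.92 and 7.53.

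The members formed a tight general block with the brown genes at different distances from it. The 10 pairs among the 5 general genes had Pearson's r from 0.78 to 0.95 over the 12 arrays, with a median of 0.88, and from 0.83 to 0.96 once group means were removed. Ucp1 and Cidea had r = 0.72 (Spearman's rho 0.82), which was 0.92 with group means removed and 0.67 without the 2 arrays farthest from the median of Ucp1. With the general genes, Cidea had r between 0.63 and 0.80, and Ucp1 from 0.22 with Cfd to 0.67 with Plin1. Once group means were removed, these ranges were 0.53 to 0.81 for Cidea and 0.40 to 0.76 for Ucp1, and largely overlapped. Dio2 had r = 0.02 with Ucp1 and between 0.06 and 0.48 with the others, and with group means removed its 7 values lay between -0.22 and 0.10. These 28 pairs share arrays and the scaling of each array, so the values describe the 12 arrays and carry no p.

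**Figure D2:**
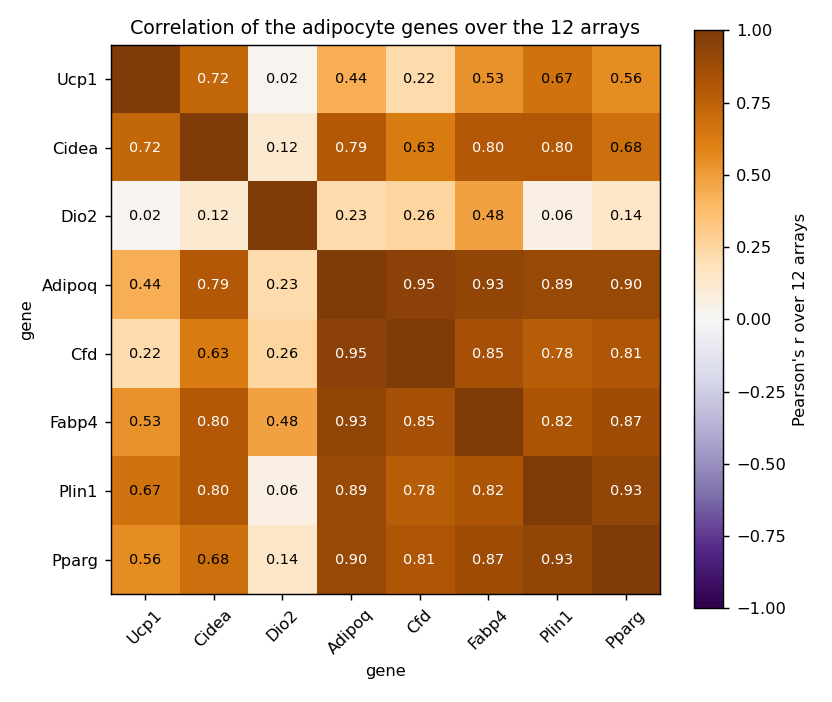
Pearson's r between the 8 tested adipocyte genes over the 12 arrays, from -1 (purple) to 1 (brown). The 5 general genes form a block of 0.78 to 0.95, Cidea has 0.63 to 0.80 with them, and the row of Dio2 stays at 0.48 or below.

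The genes whose pattern over the 12 arrays was most like that of Ucp1, among all genes tested, were Cox8b (r = 0.95), Cox7a1 (0.90), Cpt1b (0.89), Cdh26 (0.88) and Gm10827 (0.87). Cox8b and Cox7a1 are subunits of cytochrome oxidase found in brown fat and striated muscle, and Cpt1b brings fatty acids into the mitochondria of the same tissues. Cox8b measured 3.33, 1.96 and 1.08 in WT before and -0.27, 4.06 and 2.39 in WT at day 3. It measured 3.26, 1.36 and 0.19 under the knockout label before and 0.66, 2.37 and 1.53 at day 3, so its highest and lowest arrays in WT at day 3 were those of Ucp1. The mean of 22 other brown adipocyte genes, a list that holds Cox8b, Cox7a1 and Cpt1b, had r = 0.89 with Ucp1. The mean of 7 heart muscle markers had r = 0.26 with Ucp1, 0.19 with Cox8b, 0.46 with Cox7a1 and 0.43 with Cpt1b. For the mean of 8 skeletal muscle markers these values were 0.25, 0.25, 0.48 and 0.20. The part of muscle in these levels was not tested.

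For Adipoq the nearest genes were Cidec (r = 0.98), Retn (0.97), Cfd (0.95), Car3 (0.94) and Cd36 (0.93). Cidec fuses lipid droplets in white adipocytes, Retn encodes the hormone resistin, and Cd36 takes up fatty acids. Cidec measured 0.43, 3.45 and 3.57 in the group labelled smSocs3-KO at day 3, the same split as Adipoq. The mean of 27 other general adipocyte genes had r = 0.96 with Adipoq, 0.88 with Cidea, 0.56 with Ucp1 and 0.28 with Dio2.

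Over the 12 arrays, Dio2 instead followed the mean log2 level of markers of another cell type. The group means of both were higher at day 3 in either genotype, and r with group means removed was not computed for these markers. Its r was 0.89 with the mean of 7 macrophage markers and -0.92 with the mean of 7 smooth muscle markers, and -0.14 with the mean of the 22 brown adipocyte genes. Relative to WT before, the macrophage mean was 1.30 to 1.36 throughout the challenged knockout-label group. In WT at day 3 it spanned 0.13 to 1.49, and before challenge under the knockout label 0.06 to 0.44. Of the 7 markers, 6 had higher means and 1 a lower mean at day 3 in either genotype. The sum of their linear levels, scaled by array, ranked the arrays differently. It was 176 to 217 at day 3 under the knockout label, against 194 to 240 in WT before and 164 to 281 in WT at day 3. The highest sum of all 12 arrays was 334, on replicate 1 before challenge under the knockout label. The array with the lowest macrophage mean at day 3, replicate 4 of WT, also had the lowest Dio2 of that group (3.44). Replicates 1 and 3 of WT at day 3 went the other way, with macrophage means of 1.49 and 1.05 and Dio2 at 4.49 and 5.09. In the challenged knockout-label group the order was the same for both, but Dio2 ran from 4.09 to 5.18 over nearly equal macrophage means. The part of either cell type in the Dio2 signal was not tested.

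**Figure D3:**
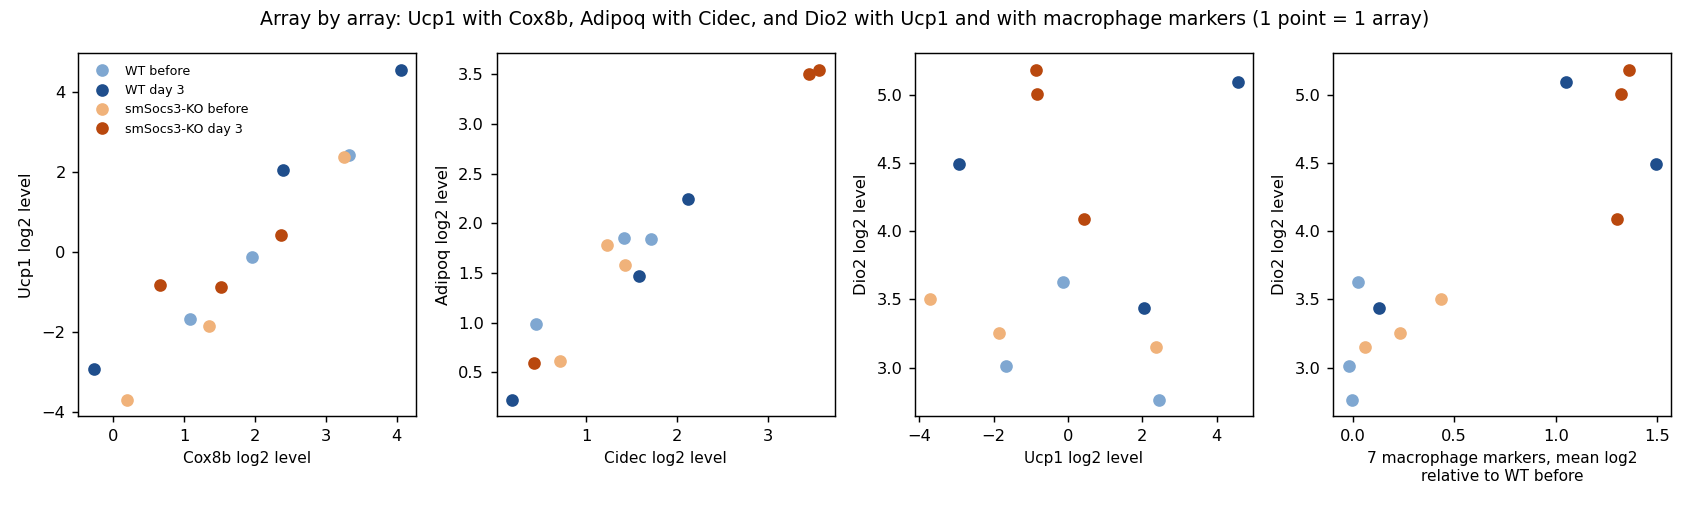
Each point is 1 of 12 arrays, coloured by group, on log2 scales. Ucp1 lies along a line with Cox8b (r = 0.95) and Adipoq with Cidec (r = 0.98), and Dio2 shows no line with Ucp1 (r = 0.02). With the mean of the 7 macrophage markers, Dio2 has r = 0.89 over all 12 arrays.

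To set brown against general genes, the mean of Ucp1, Cidea and Dio2 was compared with the mean of the 5 general genes on each array, both relative to WT before. This difference was 0.64, -0.33 and -0.31 in WT before and -0.20, 1.72 and 0.72 in WT at day 3. Under the knockout label it was 0.71, -0.97 and -0.53 before and 0.98, -0.36 and -1.06 at day 3. The group means were 0.75 ± 0.96 (SD, n = 3) in WT at day 3, -0.26 ± 0.87 in smSocs3-KO before and -0.15 ± 1.04 in smSocs3-KO at day 3. Every group spread across 0 and all overlapped. The single genes went apart on some arrays. On replicate 2 of smSocs3-KO at day 3, Ucp1 relative to the general genes was -0.35 while Dio2 was 2.55, and on replicate 1 of WT at day 3 the values were -2.11 and 2.39.

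**Figure D4:**
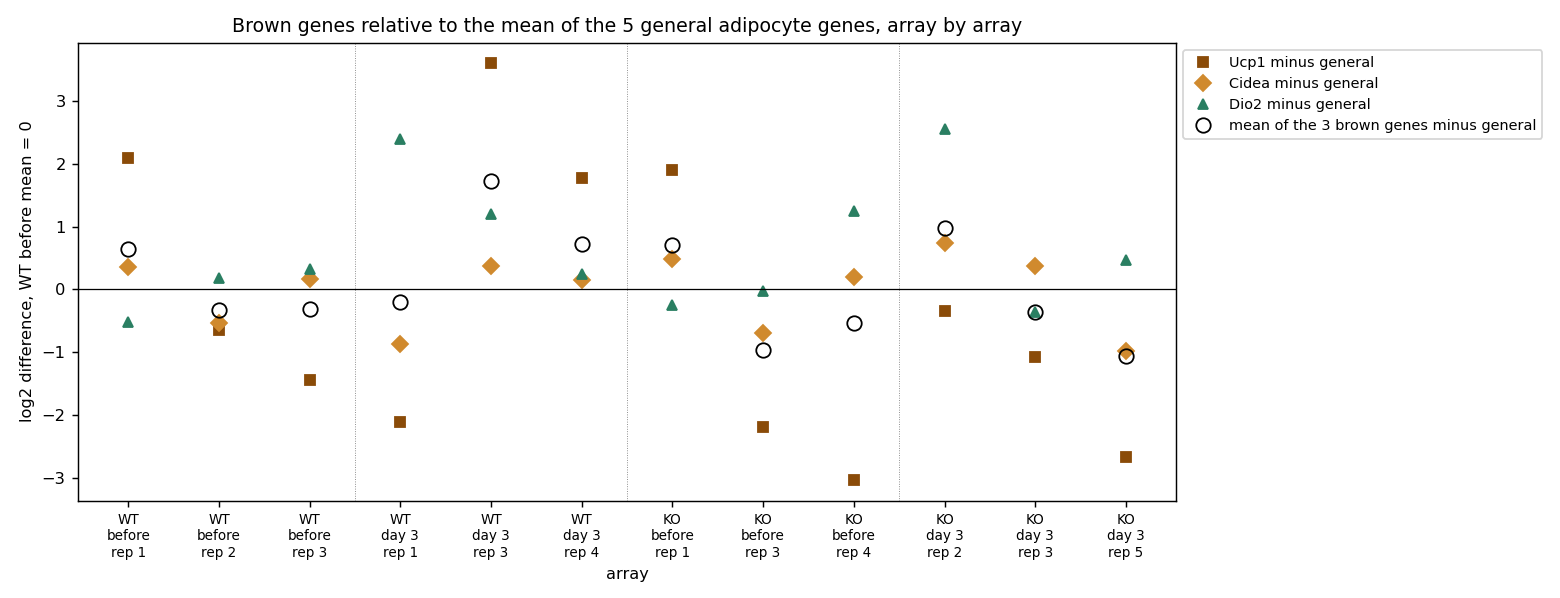
Log2 level of each tested brown gene, and of their mean (open circles), minus the mean of the 5 general adipocyte genes on the same array, with the mean of WT before set to 0. Squares for Ucp1 run from -3.03 to 3.60, diamonds for Cidea stay between -0.98 and 0.74, and triangles for Dio2 reach 2.55.

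In WT mice, no member passed the test between day 3 of BAPN + AngII and before. Differences were tested with limma across all 22769 genes, with Benjamini-Hochberg adjusted p under 0.05 as the call, and 0 of the 8 members passed, against 4.68% of all genes. That share was unstable: without replicate 1 or 2 of WT before, or replicate 1 or 3 of WT at day 3, 0 genes were called, without replicate 3 of WT before 3, and without replicate 4 of WT at day 3 3624. Dio2 came nearest, at a log2 difference of 1.21 (SE 0.41, adjusted p = 0.10), a 2.31-fold higher mean at day 3 with overlapping groups. Ucp1 differed by 1.01 (SE 1.90, adjusted p = 0.76), with a 95% interval from -3.18 to 5.21 that covers large changes either way. The 5 general genes lay between -0.36 (Plin1) and 0.28 (Fabp4). None of the 8 members passed the methods' threshold, an unadjusted p under 0.01 with more than 4-fold change, against 1.29% of all genes. The Dio2 difference was 1.66 (adjusted p = 0.015) without replicate 4 of WT at day 3 and 0.83 (adjusted p = 0.24) without replicate 3.

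Under the knockout label, all 8 members had higher means at day 3 than before, with a median log2 difference of 0.94 against -0.06 over all genes, yet none passed either threshold. The general genes moved together over the arrays, so the 8 signs are not separate observations. The share of all genes called was 2.45% by adjusted p and 1.63% by the methods' threshold. Dio2 was higher by 1.46 (SE 0.41, 2.74-fold, adjusted p = 0.081). It was the 1 member whose groups did not overlap, which 28.1% of all genes did in this comparison and 35.3% in WT. Fabp4 was higher by 1.49 (SE 0.68, adjusted p = 0.21), Adipoq by 1.22 (SE 0.76, adjusted p = 0.34), Cidea by 0.95 and Cfd by 0.94. Pparg (0.30), Plin1 (0.53) and Ucp1 (0.64, SE 1.90) had smaller means. The size of the general genes' differences depended on single arrays at day 3. Leaving out replicate 5 gave 0.72 for Adipoq and 0.46 for Cfd, and leaving out replicate 3 gave 0.75 and 0.59. Without replicate 2, Adipoq was 4.59-fold higher (log2 2.20, SE 0.55, adjusted p = 0.0996) and Fabp4 4.46-fold (log2 2.16, SE 0.64, adjusted p = 0.13), both past the methods' threshold and neither past the adjusted one. Within slide 2, where 2 arrays before stood against 3 at day 3, Ucp1 was higher by 2.36 (adjusted p = 0.16) and Adipoq by 1.45 (adjusted p = 0.48).

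Before challenge, no adipocyte gene passed the test between genotypes. The log2 differences, arrays labelled smSocs3-KO minus WT, lay between -0.41 (Plin1) and 0.17 (Dio2) for 7 members and at -1.27 (SE 1.90) for Ucp1, and 0 of 8 passed either threshold. Of all genes, 0.0264% passed the adjusted p, 0.242% the methods' threshold, and 11.1% had groups that did not overlap. With slide as a block, and equally on slide 1 alone, where 1 array labelled smSocs3-KO stood against 3 WT arrays, the Ucp1 difference turned to 2.17 (adjusted p = 0.80 with the block). In all, 6 of the 8 members turned from a lower to a higher mean under the knockout label with the block, with Cidea at 0.75, Fabp4 at 0.38, Plin1 at 0.28, Adipoq at 0.22 and Pparg at 0.16, and none was called.

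At day 3, 7 of the 8 members had higher means under the knockout label than in WT, and none passed. The median log2 difference of the 8 was 0.73, against -0.08 over all genes. As the general genes moved together over the arrays, these signs are not separate observations. Adipoq differed by 1.23 (SE 0.76, adjusted p = 0.46), Cfd by 1.16 (SE 0.61, adjusted p = 0.38), Fabp4 by 1.02, Cidea by 0.97, Plin1 by 0.48, Dio2 by 0.42 and Pparg by 0.17. Ucp1 was the exception at -1.64 (SE 1.90), and with slide as a block it turned to 3.51 (adjusted p = 0.56). No slide held both genotypes at day 3, so the block rests on 1 array, replicate 1 of smSocs3-KO before (Ucp1 2.38), the 1 array with the knockout label on slide 1. Among all genes, 1.11% passed the adjusted p and also 1.11% the methods' threshold, and 20.5% had groups that did not overlap, which no member did. Without replicate 2 of smSocs3-KO at day 3, Adipoq was 4.63-fold higher (adjusted p = 0.093) and passed the methods' threshold. Without replicate 1 of WT at day 3, by contrast, Adipoq differed by 0.69, Fabp4 by 0.40 and Cidea by 0.12, and without replicate 5 of smSocs3-KO Adipoq differed by 0.73 and Fabp4 by 0.46. Mesothelial markers, from the sheet of cells that covers organs of the chest and abdomen, were also higher under the knockout label at day 3, with a median log2 difference of 2.62 over 7 markers, of which 6 passed the methods' threshold and 0 the adjusted p. Their sum was 33.3 to 53.1 times the 75th percentile there against 3.05 to 15.3 in WT. They were higher before challenge as well, by a median of 2.12 with 7 of 7 positive, where their sum was 30.9 to 70.0 against 4.28 to 24.6 in WT. Over the 12 arrays, the mean of the 7 mesothelial markers had r from -0.44 (Ucp1) to 0.30 (Cfd) with the 8 members, and 0.11 with Adipoq. The part of mesothelial cells in the adipocyte values was not tested.

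No member passed the test of a difference in response between the genotypes. The interaction was positive in 7 of 8, with Adipoq at 1.47 (SE 1.07, adjusted p = 0.97) and Ucp1 at -0.37 (SE 2.69). Its median was 0.94 over the 8 members and -0.06 over all genes, and the signs are again not separate observations. By limma, 0 members and 0% of all genes passed the adjusted p, with 1215 genes and no member at an unadjusted p under 0.05, and 0.307% of all genes passed the methods' threshold. Without replicate 2 of smSocs3-KO at day 3, Adipoq passed that threshold (log2 2.44, adjusted p = 0.55).

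**Figure D5:**
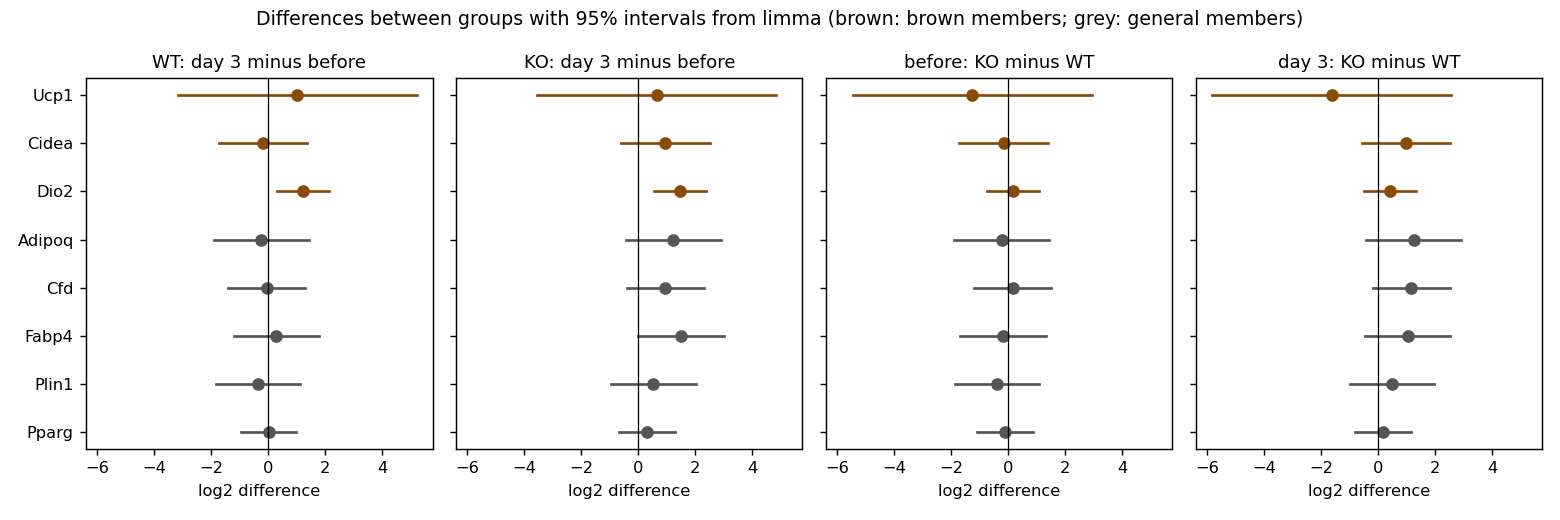
Log2 differences between groups for the 8 tested adipocyte genes, with 95% intervals from limma, brown genes in brown and general genes in grey. The intervals of Dio2 exclude 0 in both responses to the challenge, without passing after adjustment over all genes, and those of Ucp1 are the widest in every comparison.

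Beyond the members, brown adipocyte genes showed no change that passed the test. Of 27 listed, 22 were tested, and none was called in any comparison by either threshold. By adjusted p, 4.68% of all genes were called in WT and 2.45% under the knockout label. The median log2 difference of the 22 was -0.14 in WT and -0.02 under the knockout label, against -0.02 and -0.06 over all genes. The 3 with the largest differences after challenge in WT were Cox7a1 (0.79), Ppargc1a, the coactivator of mitochondrial genes (-0.70), and Zic1, a transcription factor of brown fat precursors (-0.68). Under the knockout label they were Lhx8 (1.76), Plin5 (1.69) and Ucp3 (1.16, adjusted p = 0.13). Plin5 is a droplet protein of oxidative cells and Ucp3 an uncoupling protein relative. The groups of Lhx8 and Ucp3 did not overlap, as for 28.1% of all genes in this comparison. Before challenge the largest genotype differences were Adrb3, the adrenergic receptor of fat cells (-0.67), Plin5 (-0.67) and Ebf2 (-0.60). The groups of Ebf2 did not overlap there, as for 11.1% of all genes. At day 3 the largest genotype differences were Lhx8 (2.004), Otop1 (-0.91) and Ucp3 (0.85). The Lhx8 probe was well above background on 0 of 3 arrays in WT before, 1 of 3 in WT at day 3 and 2 of 3 under the knockout label before, so that both its differences rest partly on signal near background. Otop1 was above it on 2 of 3 arrays in WT at day 3.

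Few general adipocyte genes were called. Of 28 listed, 27 were tested. In WT 1 rose, Pde3b, the phosphodiesterase through which insulin restrains lipolysis (log2 0.67, adjusted p = 0.040), against 4.68% of all genes. Its call ended without any 1 of the 3 arrays of WT before or replicate 1 or 3 of WT at day 3, among others. It was kept in 4 of 12 fits that left out 1 array, and lost with a replicate block (adjusted p = 0.11). Under the knockout label 1 rose, Cebpa (0.93, adjusted p = 0.038), against 2.45%, and Mrap passed the methods' threshold alone (2.20, 4.61-fold, adjusted p = 0.069). The list's median was 0.38 under the knockout label and 0.06 in WT, and 0.53 between genotypes at day 3 against 0.02 before. Next in size were Ffar2 (1.56) and Cidec (1.36) under the knockout label, and Plin4 (-1.08), Acvr1c (-0.98) and Scd1 (0.95) in WT. Ffar2 (1.76), Mrap (1.42) and Pck1 (1.41) differed most between genotypes at day 3, with adjusted p of 0.26 or above, and the Ffar2 probe was well above background on 2 of 3 arrays in WT at day 3. Before challenge Adrb3 (-0.67), Acvr1c (-0.50) and Pck1 (0.43) did so.

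The called genes of the other lists are named after their values were seen, because few passed. Outside the lists below, Cd3g, a lymphocyte marker, fell in WT (log2 -1.97, adjusted p = 0.035). Tnnc2, a skeletal muscle marker, fell under the knockout label (-1.23, adjusted p = 0.044). Their calls were kept in 6 and 2 of 12 fits that left out 1 array. Among 17 adipocyte transcription factors, which include Pparg, 4 rose under the knockout label and 0 in WT, against 2.45% and 4.68% of all genes, with no interaction called. They were Cebpa, Cebpb (log2 1.14, adjusted p = 0.037), Cebpd (1.20, adjusted p = 0.041) and Nr1h3, the cholesterol-sensing receptor LXRα (0.90, adjusted p = 0.034). None of the 4 was called with slide as a block (adjusted p from 0.061 to 0.098) or with a replicate block (0.28 to 0.63). Each also lost its call without any 1 of the 6 arrays before challenge or replicate 5 of smSocs3-KO at day 3, and kept it in 3 or 4 of 12 fits that left out 1 array. Cebpb and Cebpd start adipocyte differentiation and are also induced by inflammatory cytokines in many cells. Both were higher under the knockout label at day 3 than in WT, by 1.28 (adjusted p = 0.030) and 1.25 (adjusted p = 0.047), where 1.11% of all genes were called. With slide as a block 0 genes were called in that comparison, where Cebpb had an adjusted p of 0.22 and Cebpd of 0.23, and genotype and slide cannot be told apart at day 3. Most macrophage markers moved in the same arrays, with 6 of 7 higher and 1 lower at day 3 in either genotype. Under the knockout label 3 of the 7 were called, Cd68, Mrc1 and Cd14, with a median of 0.92 over the list. In WT 0 were called, with a median of 1.04. These 3 calls were kept in 2 of 12 fits without 1 array. Their part in the calls above was not tested. Of 16 lipid droplet and lipolysis genes, Abhd5, the activator of adipose triglyceride lipase, rose (1.37, adjusted p = 0.019; 0.069 with slide as a block) and no other was called.

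Among 9 preadipocyte genes, Zfp423 (log2 -1.18, adjusted p = 0.048) and Gli1 (-1.17, adjusted p = 0.047), which mark fat cell precursors and adventitial cells, fell in WT. Of all genes, 4.68% were called in WT, 2.45% under the knockout label and 1.11% between genotypes at day 3. Ly6a rose under the knockout label (1.56, adjusted p = 0.027; 0.089 with slide as a block), and Pi16 was higher there than in WT at day 3 (1.64, adjusted p = 0.047; 0.26 with the block). Of 6 genes higher in white than in brown fat, Psat1, an enzyme of serine synthesis that many growing cells use, rose in WT (2.42, adjusted p = 0.032). The calls of Zfp423, Gli1 and Psat1 in WT ended without the same 5 arrays as that of Pde3b, among others. They were kept in 2, 3 and 6 of 12 fits that left out 1 array. With a replicate block none of these was called (adjusted p = 0.085, 0.11 and 0.057). No call was made in any comparison among 5 beige adipocyte genes, 9 adipokines, 5 adipokine receptors, 13 thermogenic signalling genes or 6 sympathetic nerve and chromaffin markers. At the shares above, lists this short would hold few calls. Of 10 genes for uncoupling proteins and the creatine cycle, 1 was called, Alpl, a phosphatase that also marks bone-forming cells and neutrophils (2.68 under the knockout label, adjusted p = 0.011). Alpl kept its call without each of the 12 arrays in turn and with slide as a block (adjusted p = 0.044), and lost it with a replicate block (0.26).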

How the data were processed

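Total RNA of 12 aortic samples was hybridised to one-colour arrays. The deposited scanner files hold a processed signal per spot, a linear intensity from Feature Extraction (version 10.7.1.1 per the file headers, 9.5.1.1 per the submitters' notes) by background subtraction. Per the file headers, a spot is well above background at 13 background SDs. A second deposited table holds quantile-normalized intensity values and served as an alternative.

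From these, log2 signals minus each array's 75th percentile were taken, control and outlier spots were left out, and spots of 1 probe were averaged. Probes that passed this mark throughout 1 group or more were kept (32291 of 55681), the brightest per gene stood for it, and 22769 genes were tested with limma 3.58.1 in R 4.3.3 over all 12 arrays and 4 group means. The steps were tested on simulated data. The members and gene lists were chosen with earlier results of these data known. All members are described. Other genes are named if among the 3 largest differences per list and comparison, or the 5 most correlated with Ucp1 or Adipoq.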

Additional observations from a re-analysis of the deposited data

How the results depend on the processing

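The differences of the 8 tested members in the 5 comparisons were recomputed with other background correction, scaling, probe filters, variance models, sample sets, slide and replicate terms and without each array in turn, 976 values for 40 differences. Of these, 906 kept their sign and their side of the adjusted threshold, 66 changed sign without being called, and 4 became called, all for Dio2. Dio2 was the 1 member called in WT with array weights (log2 1.26, adjusted p = 0.018) and without replicate 4 of WT at day 3 (1.66, adjusted p = 0.015). It was the 1 member called under the knockout label when each array was scaled to its median (1.66, adjusted p = 0.045) and without replicate 4 of WT at day 3 (1.46, adjusted p = 0.025), where only the shared error changed. Leaving out 1 array at a time gave 0 to 1 called members in either response. By the methods' threshold it gave 0 to 2 members in the response under the knockout label, and 0 to 1 between genotypes at day 3 and in the interaction, each time through replicate 2 of smSocs3-KO at day 3. The brown minus general difference between genotypes before challenge turned to 0.71 with slide as a block and within 1 slide, and at day 3 to 0.56 with the block, against an SD between replicates of 0.88. The cause was not tested.

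With a replicate block, 0 members were called, 34 of 40 differences kept their sign, and the brown minus general values were 0.89 in WT, 0.50 under the knockout label, -0.12 before and -0.51 at day 3. With group means removed, same-numbered arrays of different groups correlated between -0.40 and 0.46. They were not compared with arrays of different numbers, so whether the numbers pair the samples was not tested. With 3 arrays a group, the 95% intervals of Ucp1 between groups reach 4.19 log2 units either way and those of Dio2 0.91. In the interaction the interval of Ucp1 is wider, from -6.30 to 5.56. These intervals are not adjusted over all genes, so even a difference of that size would not necessarily be called. No array was saturated at any member's probe.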

Other observations

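The genes whose pattern was most like that of Dio2 over the 12 arrays, looked up after its values were seen, were 1700037H04Rik (r = 0.98), Cdr2l (0.97), Lsp1 (0.97), Ripk3 (0.96) and Bok (0.96). None of the 5 is in any gene list used here, the macrophage markers included. The mean of Dio2 was higher at day 3 in either genotype, and r with group means removed was not computed for these 5. Lsp1 encodes a protein of leukocytes, and Ripk3 is a kinase of necroptosis.

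The largest SDs around the group means among all 22769 genes were those of Adcy1 (3.03), Ucp1 (2.70), C130078N14 (2.66), Sln (2.65) and Myh6 (2.60). Sln and Myh6 are muscle genes, the latter a myosin of the heart. Myh6 measured 4.08, 0.45 and -3.12 in WT before and 3.05, 3.82 and 0.13 in WT at day 3. Under the knockout label it measured 3.26, 1.85 and 2.38 before and 3.81, -1.34 and 4.34 at day 3. Replicate 1 of WT at day 3 was high in Myh6 and lowest of its group in Ucp1. In WT before, by contrast, Ucp1 fell in the same order as Myh6 (2.44, -0.13 and -1.67). Replicate 1 before challenge under the knockout label was the highest of its group in both (Ucp1 2.38). Whether the spread of the 2 genes has a shared source was not tested.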
